A study of Mus musculus with 9 samples.

Results

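Neurotransmitter receptors are the genes described here, as 79 genes measured by 158 probe sets, out of 18193 genes and 34945 probe sets annotated to a single gene symbol on the mouse Affymetrix array. The rule that picks them reads the gene symbol and no measured value, taking every gene whose symbol carries the stem of a nicotinic, muscarinic, GABA, glycine, ionotropic or metabotropic glutamate, serotonin, P2X, adrenergic or dopamine receptor. The study followed neural crest cells and tissues derived from them by laser capture microdissection, with DNA repair genes as its stated object. Cells were captured from E8.5 mouse embryos at neural tube closure, from E13.5 dorsal root ganglia and from adrenal medullae of adults 3 months old (P90), and each stage gave 3 arrays from samples labelled as biological replicates. Strain, sex and genotype are not given in the sources used here, nor is the number of animals behind a capture, so the p-values below measure the spread between these samples. Stage and tissue change together, so their parts in a difference cannot be told apart.

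Transmitter receptors fall into channels that open when a transmitter binds and receptors that signal through G proteins. Nicotinic, GABA-A, glycine, AMPA, kainate, NMDA, P2X and Htr3 receptors are channels assembled from several subunits, and the subunits present set the ion selectivity and speed of the channel. Muscarinic, GABA-B, metabotropic glutamate, adrenergic, dopamine and the other serotonin receptors couple to G proteins. Sensory neurons of the dorsal root ganglion are known for ATP-gated P2X channels, for the kainate subunit Grik1 and for GABA-A receptors on their cell bodies and central terminals. Chromaffin cells of the adrenal medulla release catecholamines when acetylcholine from splanchnic nerves opens nicotinic channels built with the subunit Chrna3.

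Deposited signals were linear, with 1 as the lowest value, and changes below are log2 changes of signal plus 16 with their standard error, so changes of dim genes are understated. Median signals of the 9 arrays lay between 38.3 and 48.2, and log2 signals correlated at 0.877 to 0.986 between arrays of a stage and at 0.809 to 0.910 between stages. Of the 9 arrays, E13.5 replicate 1 had the smallest and E13.5 replicate 2 the largest excess of 3' over 5' Actb signal, a sign of RNA integrity, at 0.85 and 6.69 on the log2 scale. On E13.5 replicate 2, 22.2% of tested genes read below 0.5 times the signal on both other arrays of the stage, and on P90 replicate 1, 7.65% did. The stage labels were checked against marker lists. Of 7 annotated chromaffin markers, 6 had no empty value, and their summed signal was 260 to 303 at E8.5, 1404 to 3894 at E13.5 and 12207, 23646 and 22871 on the P90 arrays. P90 replicate 1 thus held the lowest chromaffin sum of its stage, and it held the highest sum of 4 endothelial markers, at 3117 against 417 and 423. That endothelial sum was mostly Kdr, at 2728 against 123 and 180. Cdh5 was highest on that array too, at 340 against 237 and 160. Tie1 was lowest there, at 25.3 against 34.4 and 38.2, and Pecam1 lay between the other arrays. Among sensory neuron markers, 2 of 6 had no empty value, Isl1 and Prph. Their sum was 59.5 to 221 at E8.5, 3253 to 5326 at E13.5 and 218 to 1979 at P90. At E13.5 it was mostly Isl1, which read 5141, 3153 and 5244 there and 88.9, 1876 and 1420 at P90. Prph was not called at E13.5 against E8.5 in limma (adjusted p = 0.189). The brightest probe sets of Pou4f1, Avil and Scn9a were empty on all 3 E13.5 arrays, so these markers could not check that stage. The pan-neuronal marker Elavl3, the 1 of 8 with no empty value, read 120.4 to 372 at E8.5, 2776 to 2954 at E13.5 and 95.7 to 592 at P90. Snap25, also tested, read 375 and 1015 at E13.5 with replicate 1 empty, and 111, 966 and 755 at P90. Unlike Elavl3 it was not called at P90 against E13.5 (log2 -0.47 ± 0.77, adjusted p = 0.807). It rose at P90 against E8.5 (log2 3.87 ± 0.69, adjusted p = 0.00258). The brightest probe sets of Tubb3, Elavl4, Stmn2, Nefl, Nefm and Gap43 were likewise empty on all 3 E13.5 arrays. Glial markers also stood highest at E13.5, where the sum of 3 of 4 was 1366 to 5221, against 294 to 551 at E8.5 and 159 to 913 at P90, and S100b and Mbp among them rose at E13.5 and fell after it. All 7 neural crest markers summed to 2829 to 5127 at E8.5, 2041 to 2904 at E13.5 and 905 to 1952 at P90, and 6 of 7 neural tube markers to 4570 to 5442, then 1494 to 2396, then 976 to 1242. Not every marker followed these sums. At E13.5 against E8.5 Sox10 and Snai2 changed by 0.71 ± 0.34 and 0.44 ± 0.51, neither called. Ets1 gave 1353 of the neural crest sum on P90 replicate 1. Sox2 made up most of the neural tube sum at E8.5, and Nes, not called in any comparison, most of it at P90. Of 8 adrenal cortex markers, 4 were tested and the other 4 were empty on all 3 P90 arrays. Nr5a1, a transcription factor of steroid-producing cells, read 31.5, 29.2 and 55.2 at E8.5 and 177, 183 and 241 in E13.5 ganglia. At P90 it read 445 and 318 with replicate 1 empty. It rose in limma at P90 (log2 2.88 ± 0.36, adjusted p = 0.000283) and already at E13.5 (adjusted p = 0.00186) against E8.5. Its difference at P90 against E13.5 was not called (log2 0.87 ± 0.36, adjusted p = 0.187). Cyp11a1, the first enzyme of steroid synthesis, read 73.3, 26.2 and 16.3 at P90. It was not called at P90 against E8.5 (log2 0.18 ± 0.33, adjusted p = 0.737), nor were Mc2r and Cyp11b2. The part of glial, neural tube or cortex cells in the receptor values was not tested. Values were also empty for members, on 40 of 1422 occasions: 6 among E8.5 arrays, 21 among E13.5 arrays and 13 among P90 arrays.

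Of the 79 genes, 45 had a probe set bright enough to be tested, with a signal above 26.1 on at least 3 arrays, and the brightest passing probe set represented each. The other 34 did not pass the filters on signal and empty values, and in 29 of them no probe set reached a signal of 40 on any array. The 5 exceptions, named after their values were seen, were Chrm3, Drd4, Grik1, Grm7 and Htr2b. At E13.5 against E8.5, 9 of the 45 rose and 0 fell in limma at an adjusted p under 0.05 (14 higher and 1 lower at an unadjusted p under 0.05), where 9.27% of all 13748 tested genes rose and 7.22% fell. Of these 9, Gabra2, Gabra3, Glra2 and Gria1 passed the signal filter only through E13.5 arrays, the stage where they are high, as did 51 of all 13748 genes, so their calls were bound up with the filter and the counts are given as a description. With no filter all 4 rises were called as well (adjusted p from 0.00114 to 0.0152), that of Gria1 through another probe set. At P90 against E13.5, 1 rose and 7 fell, where 3.54% of all genes rose and 5.94% fell, and the same 4 genes were among the 7. At P90 against E8.5, 4 rose and 1 fell, where 10.9% of all genes rose and 12.5% fell. The absence of falls at E13.5 against E8.5 depended on scaling: under quantile normalization 8 rose and 1 fell, the last being Htr1a (log2 -0.61, adjusted p = 0.0476). The median member changed by 0.31, -0.04 and 0.18 in the 3 comparisons, beside 0.02, -0.05 and 0.00 for all tested genes. Any pair of comparisons shares the arrays of 1 stage, so a rise at E13.5 and a fall after it rest in part on the same E13.5 values.

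**Figure D1:**
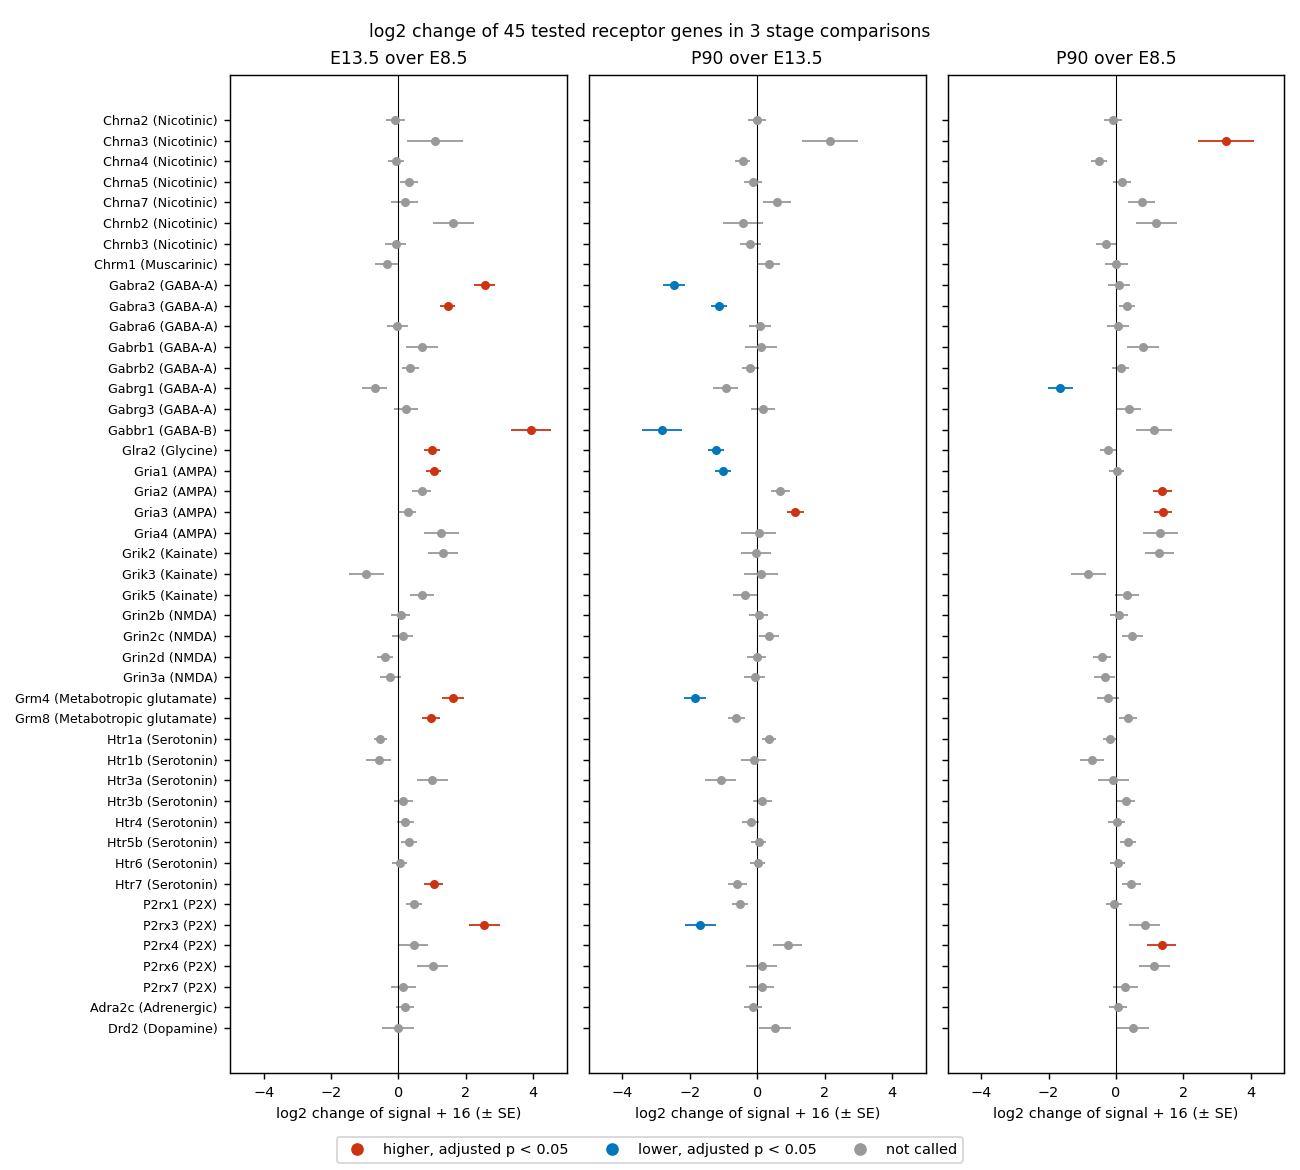
Log2 change of signal plus 16 (horizontal axis, ± SE) of the 45 tested receptor genes, 1 row per gene grouped by family, with 1 panel each for E13.5 over E8.5, P90 over E13.5 and P90 over E8.5. Genes that rose at an adjusted p under 0.05 are red, those that fell are blue and the others grey: 9 rose in the left panel, 1 rose and 7 fell in the middle panel, and 4 rose and 1 fell in the right panel.

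The arrays of the stages compared did not overlap for any of the called members. Over all 45, the E13.5 arrays lay wholly above the E8.5 arrays in 16 genes and wholly below in 3, where 18.6% and 17.1% of all genes did. P90 arrays lay wholly above E13.5 arrays in 6 and wholly below in 11 (9.59% and 13.9% of all genes). They lay wholly above E8.5 arrays in 5 and wholly below in 4 (20.3% and 23.6% of all genes). Each probe set was tested as well, with adjustment over all 24013 probe sets that passed. Of 64 member probe sets, 13 rose and 0 fell at E13.5 against E8.5, where 7.99% of all probe sets rose and 6.98% fell. At P90 against E13.5, 1 rose and 9 fell (2.88% and 4.6% of all probe sets), and at P90 against E8.5, 9 rose and 1 fell (9.57% and 11.2%).

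**Figure D2:**
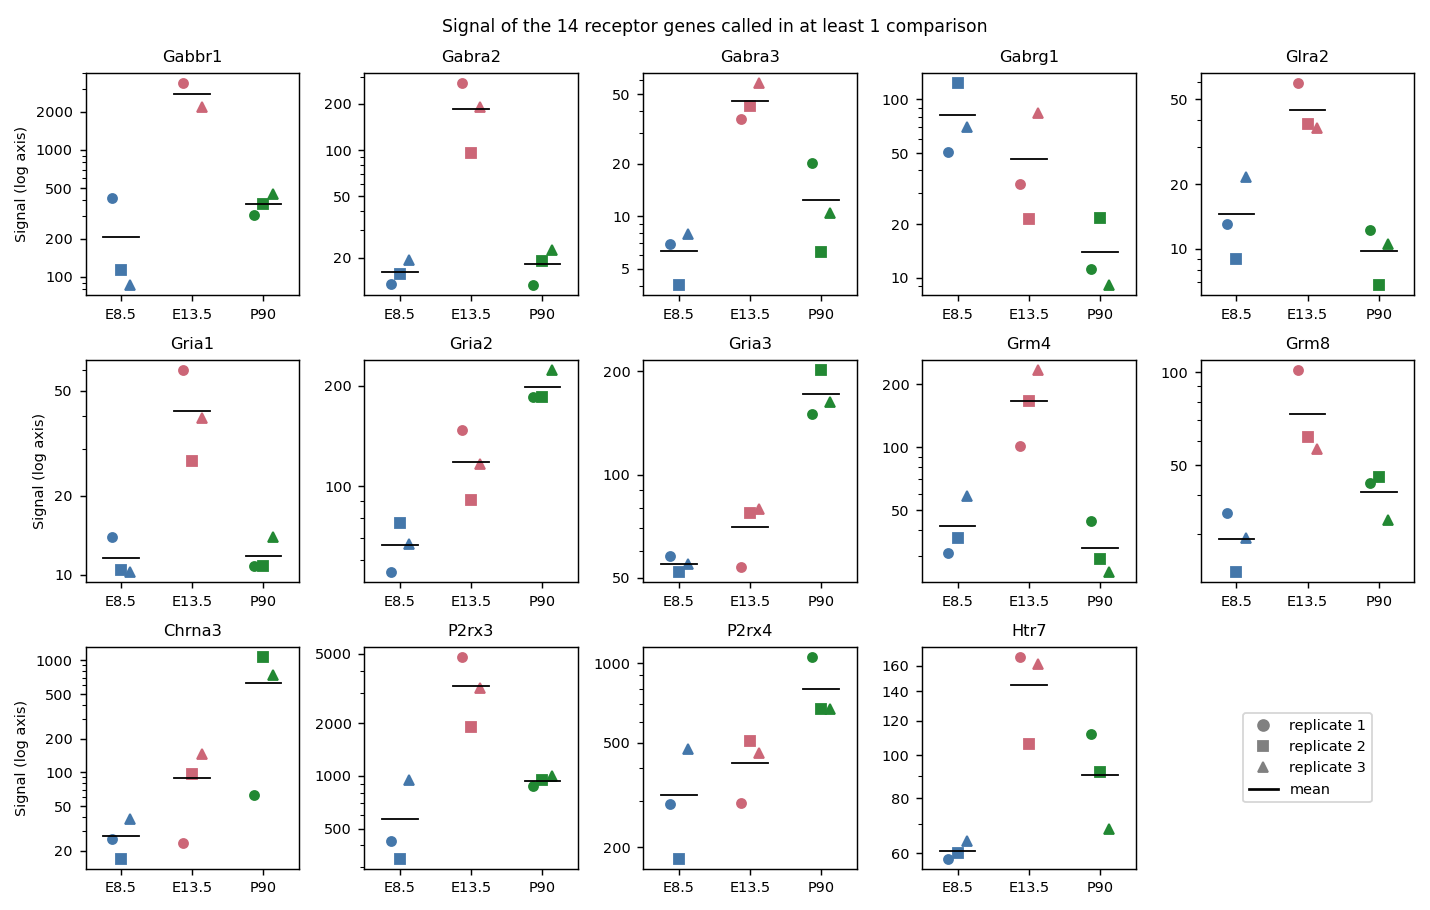
Signal (log axis) on each array of the 14 receptor genes called in at least 1 comparison, with E8.5, E13.5 and P90 from left to right, a symbol per replicate and a line at the mean. Gabbr1, Gabra2, Gabra3, Glra2, Gria1, Grm4 and P2rx3 stand highest at E13.5, and all 3 P90 arrays of Gria2 and Gria3 stand above their E8.5 arrays.

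Receptors for GABA, the main inhibitory transmitter, and for glycine gave 4 of the 9 rises at E13.5, where 9.27% of all tested genes rose. GABA-A genes gave 2 among 7 tested, and GABA-B and glycine genes 1 among 1 tested each. Gabra2, Gabra3 and Glra2 among them passed the filter only through E13.5 arrays, so nothing particular to these families is read from the count. Gabbr1, the subunit of the GABA-B receptor that binds GABA, had signals of 414, 113 and 86.3 at E8.5, 3346 and 2196 at E13.5 with the value of replicate 2 empty, and 306, 373 and 447 at P90. Both measured E13.5 arrays lay far above every other array. With that array left out of its fit, Gabbr1 rose at E13.5 against E8.5 (log2 3.94 ± 0.60, adjusted p = 0.00143) and fell at P90 against E13.5 (log2 -2.82 ± 0.60, adjusted p = 0.0136). The fall lost its call without E13.5 replicate 1 (adjusted p = 0.0776) or replicate 3 (adjusted p = 0.059), which leaves 1 E13.5 value. Another of its 4 probe sets passed, with 46.3, 74.3 and 77.3 at E8.5, 152, 181 and 223 at E13.5 and 96.9, 422 and 263 at P90. That probe set was not called at E13.5 against E8.5 (log2 1.31 ± 0.46, adjusted p = 0.0838 over all probe sets) or at P90 against E13.5 (log2 0.27 ± 0.46, adjusted p = 0.829), and it rose at P90 against E8.5 (log2 1.57 ± 0.46, adjusted p = 0.0319). In such bulk captures, more cells of a type and more RNA per cell cannot be told apart, here and in every result below.

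Gabra2 and Gabra3, alpha subunits of the GABA-A chloride channel, showed a peak at E13.5. Gabra2 had signals of 13.4, 15.6 and 19.2 at E8.5, 272, 96.1 and 190.0 at E13.5 and 13.3, 19.1 and 22.5 at P90. The E13.5 arrays lay apart from all others, and E8.5 and P90 overlapped. Gabra2 rose at E13.5 against E8.5 (log2 2.56 ± 0.32, adjusted p = 0.000348) and fell at P90 against E13.5 (log2 -2.47 ± 0.32, adjusted p = 0.000649). Both calls held without any single array, but those fits kept the genes that had passed the filter on all 9 arrays. Gabra2 passed it only through E13.5 arrays, so this stability is bound up with the filter. Its second passing probe set gave 11.3, 5.71 and 13.7, then 72.9, 47.6 and 74.8, then 8.79, 11.9 and 11.8 at the 3 stages in order of age, and was called in the same directions (adjusted p = 0.000903 and 0.00179 over all probe sets). A further probe set read 458 and 506 on the E13.5 arrays where it was not empty and at most 2.255 elsewhere, and did not pass the signal filter. Gabra3, which like Gabra2 passed the filter only on E13.5 arrays, had 6.91, 4.04 and 7.90 at E8.5, 36.0, 43.0 and 57.7 at E13.5 and 20.3, 6.27 and 10.4 at P90, again with E13.5 apart from both other stages. It rose at E13.5 (log2 1.46 ± 0.23, adjusted p = 0.00147) and fell at P90 against E13.5 (log2 -1.14 ± 0.23, adjusted p = 0.00924), the fall missing the threshold without E13.5 replicate 3 (adjusted p = 0.0531) or P90 replicate 2 (adjusted p = 0.0505).

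Gabrg1, a gamma subunit of the same channel, had no such peak at E13.5. Its signals were 50.9, 123 and 69.8 at E8.5, 33.5, 21.3 and 83.6 at E13.5 and 11.2, 21.7 and 9.12 at P90. P90 arrays lay below all E8.5 arrays, and E13.5 arrays overlapped both. It fell at P90 against E8.5 (log2 -1.65 ± 0.38, adjusted p = 0.00886), a call that held without any single array. Gabra4, an alpha subunit, did not pass the signal filter, with 21.1, 25.9 and 33.1 at E8.5, 10.99, 7.61 and 10.8 at E13.5 and 5.88, 7.70 and 6.18 at P90. In a fit without that filter it was lower at E13.5 (log2 -0.72, adjusted p = 0.00948) and at P90 (log2 -0.91, adjusted p = 0.0021) than at E8.5. In RefSeq's gene order Gabrg1 and Gabra2 are neighbours with 0 protein-coding genes between them, and Gabra4 and Gabrb1 follow in the same cluster. Gabrb1, a beta subunit, had 61.9, 46.8 and 33.9 at E8.5, 94.8, 92.3 and 70.4 at E13.5 and 27.2, 187 and 135 at P90. It was not called at E13.5 against E8.5 (log2 0.70 ± 0.48, adjusted p = 0.393), although the arrays of those stages did not overlap. Gabra6, Gabrb2 and Gabrg3 were not called in any comparison, with log2 changes between -0.21 and 0.39 in their brightest probe sets. Another passing Gabrg3 probe set read 40.7, 82.4 and 83.4 at E13.5, above all other arrays. It was not called at E13.5 against E8.5 (log2 0.86 ± 0.30, adjusted p = 0.0788 over all probe sets) or at P90 against E13.5 (log2 -0.93 ± 0.30, adjusted p = 0.093). One of Gabrb2 changed by -0.66 ± 0.26 at P90 against E13.5 and was not called (adjusted p = 0.186).

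Glra2, an alpha subunit of the glycine receptor that prevails in the embryonic rodent nervous system, passed the filter only on E13.5 arrays and had signals of 13.1, 8.99 and 21.6 at E8.5, 59.4, 38.2 and 36.5 at E13.5 and 12.2, 6.78 and 10.5 at P90. Every E13.5 array exceeded every other array. It rose at E13.5 against E8.5 (log2 0.99 ± 0.23, adjusted p = 0.0125), a call lost without E8.5 replicate 2 (adjusted p = 0.0707), and fell at P90 against E13.5 (log2 -1.22 ± 0.23, adjusted p = 0.00617). Glra1, Glra3 and Glra4 did not pass the filter.

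The promoters of the neighbours Gabra2 and Gabrg1, which were called in different comparisons, and of Glra2 are shown for comparison, from RefSeq on GRCm38.p6. Gabra2 (chr5:71095850-71096099), Gabrg1 (chr5:70842618-70842867) and Glra2 (chrX:165327394-165327643) all lie on the minus strand, and the 250 bases before each start are printed 5′ to 3′, with capitals at matches, on either strand, to 5 motifs. The motifs were the GC box GGGCGG, the TATA box TATAAA, and parts of RE1, the element bound by REST, a repressor of neuronal genes. These were the right part GGACAGC alone, and the left part AGCAC followed by GGACAGC after 3 bases or, a closer spacing added after Glra2's sequence had been seen, after 2 bases. Both paired forms contain GGACAGC.
Gabra2: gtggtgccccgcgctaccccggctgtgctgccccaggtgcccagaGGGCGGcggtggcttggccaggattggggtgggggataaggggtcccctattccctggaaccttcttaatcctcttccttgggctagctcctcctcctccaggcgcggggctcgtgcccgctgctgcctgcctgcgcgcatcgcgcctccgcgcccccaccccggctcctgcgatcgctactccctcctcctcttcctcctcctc
Gabrg1: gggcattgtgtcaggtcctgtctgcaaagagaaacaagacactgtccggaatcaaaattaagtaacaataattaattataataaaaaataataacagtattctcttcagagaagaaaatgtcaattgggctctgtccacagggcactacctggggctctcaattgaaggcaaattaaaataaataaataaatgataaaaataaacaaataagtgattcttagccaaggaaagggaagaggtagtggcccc
Glra2: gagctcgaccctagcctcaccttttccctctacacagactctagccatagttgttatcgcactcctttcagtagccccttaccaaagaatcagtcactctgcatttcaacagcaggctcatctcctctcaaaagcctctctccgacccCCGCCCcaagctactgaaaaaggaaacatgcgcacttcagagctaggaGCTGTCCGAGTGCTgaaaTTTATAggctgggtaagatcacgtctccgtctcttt
The Gabra2 promoter held 1 GC box in this stretch, Gabrg1 held no match, and Glra2 held 1 GC box, 1 TATA box and the pair 2 bases apart. Promoters in the RefSeq table span 300 bases, 250 before and 50 after the start, and 59 of the 79 members had one or more. A GC box was in 36 of 72 member promoters (50%) and in 35.7% of all 32851, and a TATA box in 7 (9.72%) and in 13.6%. GGACAGC was in 6 member promoters (8.33%) and in 6.56% of all, the pair 3 bases apart in 1 and in 0.0304%, and the pair 2 bases apart in 1 and in 0.00913%. The last of these was Glra2, whose own sequence had prompted that spacing, so its match was fixed beforehand and nothing is read from it. A match describes letters in a window, and no binding was measured.

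AMPA receptor subunits, which carry fast excitation by glutamate, were all 4 tested, and 3 were called, with different time courses. Gria1, which passed the filter only on E13.5 arrays, had signals of 13.97, 10.4 and 10.3 at E8.5, 59.9, 27.0 and 39.4 at E13.5 and 10.8, 10.8 and 13.9 at P90. E13.5 stood apart from both other stages, which overlapped. Gria1 rose at E13.5 (log2 1.04 ± 0.23, adjusted p = 0.00922) and fell at P90 against E13.5 (log2 -1.02 ± 0.23, adjusted p = 0.0154). The fall missed the threshold without E13.5 replicate 3 (adjusted p = 0.0572), without P90 replicate 2 (adjusted p = 0.0612) and with no signal filter (adjusted p = 0.0703).

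Gria2, the subunit whose edited RNA makes the channel impermeable to calcium, rose at P90. Its brightest probe set read 55.3, 77.6 and 66.9 at E8.5, 147, 91.1 and 117 at E13.5 and 186, 185 and 223 at P90, with no overlap between any stages. Of the 3 contrasts only P90 against E8.5 was called (log2 1.38 ± 0.28, adjusted p = 0.00465), and it held without any single array. The other probe sets moved further. One read 6.93, 3.80 and 13.6 at E8.5, 113, 133 and 296 at E13.5 and 36.9, 670.1 and 407 at P90, and it rose at E13.5 (log2 2.93 ± 0.77, adjusted p = 0.0259 over all probe sets) and at P90 (log2 3.39 ± 0.77, adjusted p = 0.00991) against E8.5. The third read 13.8, 15.7 and 5.44 at E8.5, 190.0, 40.04 and 155 at E13.5 and 69.5, 491 and 611 at P90, and rose at P90 against E8.5 (log2 3.46 ± 0.70, adjusted p = 0.00539). In both, P90 replicate 1 read far below the other P90 arrays yet above every E8.5 array. The Gria2 promoter (chr3:80802836-80803085, minus strand) is shown because it held the only match to AGCAC and GGACAGC 3 bases apart among member promoters, in capitals on the opposite strand.
Gria2: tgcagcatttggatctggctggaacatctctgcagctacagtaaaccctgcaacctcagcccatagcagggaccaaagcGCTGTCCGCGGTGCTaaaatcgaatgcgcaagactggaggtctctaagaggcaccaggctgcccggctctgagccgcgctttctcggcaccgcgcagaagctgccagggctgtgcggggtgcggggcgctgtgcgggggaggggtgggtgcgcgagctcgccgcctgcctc

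Gria3, another AMPA subunit, had 57.8, 52.1 and 55.0 at E8.5, 53.7, 77.1 and 79.7 at E13.5 and 151, 202 and 163 at P90. P90 arrays lay above all others, and E8.5 and E13.5 overlapped. It rose at P90 against E13.5 (log2 1.13 ± 0.26, adjusted p = 0.0179), the one member that did, and at P90 against E8.5 (log2 1.39 ± 0.26, adjusted p = 0.00266). The first of these calls ended without E13.5 replicate 1 (adjusted p = 0.0609), E13.5 replicate 3 (adjusted p = 0.0531) or P90 replicate 2 (adjusted p = 0.0778), and in a fit of only those 6 arrays (adjusted p = 0.0687). Its other probe set, with P90 replicate 2 empty and left out of the fit, read 3.19, 6.40 and 13.3 at E8.5, 15.0, 64.7 and 87.4 at E13.5 and 78.7 and 258 at P90, and rose at P90 against E8.5 (log2 2.79 ± 0.56, adjusted p = 0.00595). Gria4 had 25.6, 30.9 and 33.5 at E8.5, 112, 66.7 and 112 at E13.5 and 24.1, 216 and 146 at P90. The E13.5 arrays lay above the E8.5 arrays, and the P90 arrays lay on both sides. Gria4 was not called at E13.5 (log2 1.27 ± 0.52, adjusted p = 0.132) or at P90 (log2 1.32 ± 0.52, adjusted p = 0.0937) against E8.5.

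Kainate and NMDA receptor subunits, the other glutamate-gated channels, gave 0 calls among 3 and 4 tested genes in limma. At an unadjusted p under 0.05 Grik2 was higher in 2 comparisons, and no NMDA gene was. Grik2 had 7.38, 2.52 and 6.15 at E8.5, 49.95, 19.3 and 49.3 at E13.5 and 6.80, 70.0 and 55.4 at P90. It missed the threshold at E13.5 (log2 1.33 ± 0.44, adjusted p = 0.0615) and at P90 (log2 1.29 ± 0.44, adjusted p = 0.0538) against E8.5. Grik1, the kainate subunit known from small sensory neurons, did not pass the filter. One of its probe sets was empty on all 3 E13.5 arrays, and the other read 1.32, 4.94 and 4.78 at E8.5, 112, 21.0 and 45.2 at E13.5 and 8.38, 13.7 and 12.8 at P90. The stages did not overlap, and in the fit without the filter it was higher at E13.5 than at E8.5 (log2 1.76 ± 0.36, adjusted p = 0.012). The NMDA subunits Grin2b, Grin2c, Grin2d and Grin3a stayed between -0.42 and 0.48 in log2 change in every comparison, in their brightest passing probe sets. Another Grin2d probe set changed by 0.52 ± 0.32 at E13.5 against E8.5 and was not called (adjusted p = 0.336 over all probe sets). A Grin2b probe set that did not pass the filter read 16.6, 12.1 and 13.2 at E8.5 and 21.7, 28.8 and 40.5 at E13.5. A further one read 3.36, 1.0 and 2.13, then 5.37, 64.1 and 25.9, and was not tested either. A second Grin3a probe set read 42.9, 28.6 and 42.4 at E8.5, 138, 82.3 and 127 at E13.5 and 39.7, 208 and 127 at P90, and was not called at E13.5 against E8.5 (log2 1.27 ± 0.45, adjusted p = 0.0855).

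Metabotropic glutamate receptors of the group that lowers cyclic AMP at presynaptic endings, Grm4 and Grm8, were the only 2 of 6 tested, and both rose at E13.5. Grm4 had 31.0, 36.7 and 58.3 at E8.5, 101, 165 and 233 at E13.5 and 44.2, 29.3 and 25.3 at P90. E13.5 arrays lay above all others. Grm4 rose at E13.5 (log2 1.62 ± 0.32, adjusted p = 0.00547) and fell at P90 against E13.5 (log2 -1.85 ± 0.32, adjusted p = 0.00381), and both held without any single array. Grm8 had 35.0, 22.7 and 29.1 at E8.5, 102, 61.6 and 56.3 at E13.5 and 43.9, 45.9 and 33.3 at P90, with E13.5 again above the rest. Grm8 rose at E13.5 (log2 0.96 ± 0.26, adjusted p = 0.0249), a call lost without E8.5 replicate 2 (adjusted p = 0.116), E8.5 replicate 3 (adjusted p = 0.0755) or E13.5 replicate 1 (adjusted p = 0.0705). Its later difference was not called (log2 -0.62 ± 0.26, adjusted p = 0.189). Grm7, of the same group, was not tested, since its brightest probe set was empty on all 3 E13.5 arrays and at least 2 values per stage were required. That probe set read 2.65, 2.09 and 2.03 at E8.5 and 14.2, 328 and 178 at P90, so P90 lay above E8.5 and replicate 1 was again the lowest of its stage. With no signal filter a dimmer Grm7 probe set was tested and not called (log2 0.54 ± 0.28 at P90 against E8.5, adjusted p = 0.229). Grm3 was empty on all E13.5 arrays as well and reached at most 28.2.

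Nicotinic receptors, the acetylcholine-gated channels through which splanchnic nerves drive chromaffin cells, gave 1 call among 7 tested genes of 15. Chrna3, the alpha subunit of the ganglionic form, had signals of 25.2, 16.9 and 38.2 at E8.5, 23.6, 95.9 and 145 at E13.5 and 63.2, 1069 and 734 at P90. All P90 arrays lay above E8.5, but replicate 1 lay within the range of E13.5. Chrna3 rose at P90 against E8.5 (log2 3.26 ± 0.83, adjusted p = 0.0146), and was not called at P90 against E13.5 (log2 2.17 ± 0.83, adjusted p = 0.148). The rise lost its call without E8.5 replicate 1 (adjusted p = 0.0521), E8.5 replicate 2 (adjusted p = 0.0571), P90 replicate 2 (adjusted p = 0.0608) or P90 replicate 3 (adjusted p = 0.0643). Without P90 replicate 1 it was 4.43 ± 0.52, and the difference from E13.5 was then called too (log2 3.34 ± 0.52, adjusted p = 0.00171). Chrna3's remaining probe sets were empty on P90 replicates 2 and 3 and were not tested, as at least 2 values per stage were required. Its promoter (chr9:55026563-55026812, minus strand, GRCm38.p6) is shown as that of the nicotinic gene that rose, with a GC box in capitals.
Chrna3: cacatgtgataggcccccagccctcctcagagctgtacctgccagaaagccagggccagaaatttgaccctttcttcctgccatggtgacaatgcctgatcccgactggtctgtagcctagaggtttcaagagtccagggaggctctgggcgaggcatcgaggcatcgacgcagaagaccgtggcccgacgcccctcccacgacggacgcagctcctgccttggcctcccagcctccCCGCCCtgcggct

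Chrna5 and Chrnb4, which join Chrna3 in ganglionic channels, flank it in the RefSeq gene order with 0 protein-coding genes between. Chrna5 had 40.6, 37.0 and 22.5 at E8.5, 35.5, 60.5 and 39.3 at E13.5 and 29.5, 53.7 and 37.3 at P90, overlapping throughout and not called (log2 0.18 ± 0.27 at P90 against E8.5, adjusted p = 0.677). Chrnb4 did not pass the filter: 1 probe set read at most 15.3, and the other was empty on P90 replicates 2 and 3, the same pair as for Chrna3. Chrnb2, the common beta partner in neurons, had 23.6, 30.4 and 28.2 at E8.5, 190.1, 39.0 and 198 at E13.5 and 23.2, 163 and 124 at P90. E13.5 lay above E8.5, with replicate 2 close to it, and the change was not called (log2 1.63 ± 0.60, adjusted p = 0.089). Another passing Chrnb2 probe set changed by -0.15 ± 0.32 (adjusted p = 0.818 over all probe sets). Chrna7, which forms channels alone, read 581, 659.9 and 1337 at E8.5, 615, 1109 and 1109 at E13.5 and 1291, 1484 and 1333 at P90, and was not called at P90 against E8.5 (log2 0.76 ± 0.41, adjusted p = 0.216) or in the other comparisons. Chrna2, Chrna4 and Chrnb3 were not called either, at log2 changes between -0.51 and 0.00. The subunits of the muscle receptor, Chrna1, Chrnb1, Chrnd, Chrne and Chrng, stayed at or below a signal of 26.8 on every array in all 7 probe sets. Chrm1, a muscarinic receptor and the only one of 3 tested, had 423, 210.3 and 294 at E8.5, 227, 224 and 245 at E13.5 and 374, 256 and 278 at P90 and was not called.

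P2X receptors, channels opened by extracellular ATP, gave 1 rise at E13.5, 1 fall after it and 1 rise at P90 against E8.5 among 5 tested genes. P2rx3, the subunit of nociceptive neurons, had 425, 336 and 949 at E8.5, 4795, 1910.0 and 3174 at E13.5 and 879, 948 and 995 at P90. Every E13.5 array exceeded every other array. P2rx3 rose at E13.5 (log2 2.54 ± 0.46, adjusted p = 0.00299), and all 3 of its probe sets that passed were called there. It fell at P90 against E13.5 (log2 -1.69 ± 0.46, adjusted p = 0.0394), but removing any 1 array ended that call (adjusted p between 0.053 and 0.137), except E8.5 replicate 3 or E13.5 replicate 2, as did a fit with no filter (adjusted p = 0.0563), over all probe sets (adjusted p = 0.0514) or with only the arrays compared (adjusted p = 0.0659). The fall was larger in its other probe sets. One read 26.6, 33.8 and 28.4 at E8.5, 325, 150.2 and 278 at E13.5 and 34.8, 37.7 and 26.6 at P90 (P90 against E13.5 log2 -2.39 ± 0.30, adjusted p = 0.000881). The other read 19.5, 18.5 and 10.7, then 39.4, 121 and 199, then 8.25, 10.1 and 9.20 in order of age (log2 -2.23 ± 0.40, adjusted p = 0.00678). P90 arrays overlapped the E8.5 arrays in the first of these and lay wholly below them in the second.

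P2rx4, a widely expressed subunit, rose at P90 instead. It had 292, 181 and 474 at E8.5, 294, 507 and 458 at E13.5 and 1056, 672 and 668 at P90. P90 arrays lay above all others, which overlapped. The rise against E8.5 was called (log2 1.36 ± 0.43, adjusted p = 0.0384), but lost without E8.5 replicate 1 (adjusted p = 0.0951), E8.5 replicate 2 (adjusted p = 0.182), E13.5 replicate 3 (adjusted p = 0.0562) or any P90 array (adjusted p from 0.0644 to 0.0881). A second probe set of P2rx4 was flat, between 25.3 and 46.0 on all arrays (log2 0.09 ± 0.23, adjusted p = 0.817). P2rx2, which pairs with P2rx3 in sensory neurons, was dim, at 17.8 or below, and was higher at E13.5 than at E8.5 only in the fit without a filter (log2 0.64 ± 0.15, adjusted p = 0.0204). P2rx1, P2rx6 and P2rx7 were not called, with log2 changes between -0.51 and 1.14.

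**Figure D3:**
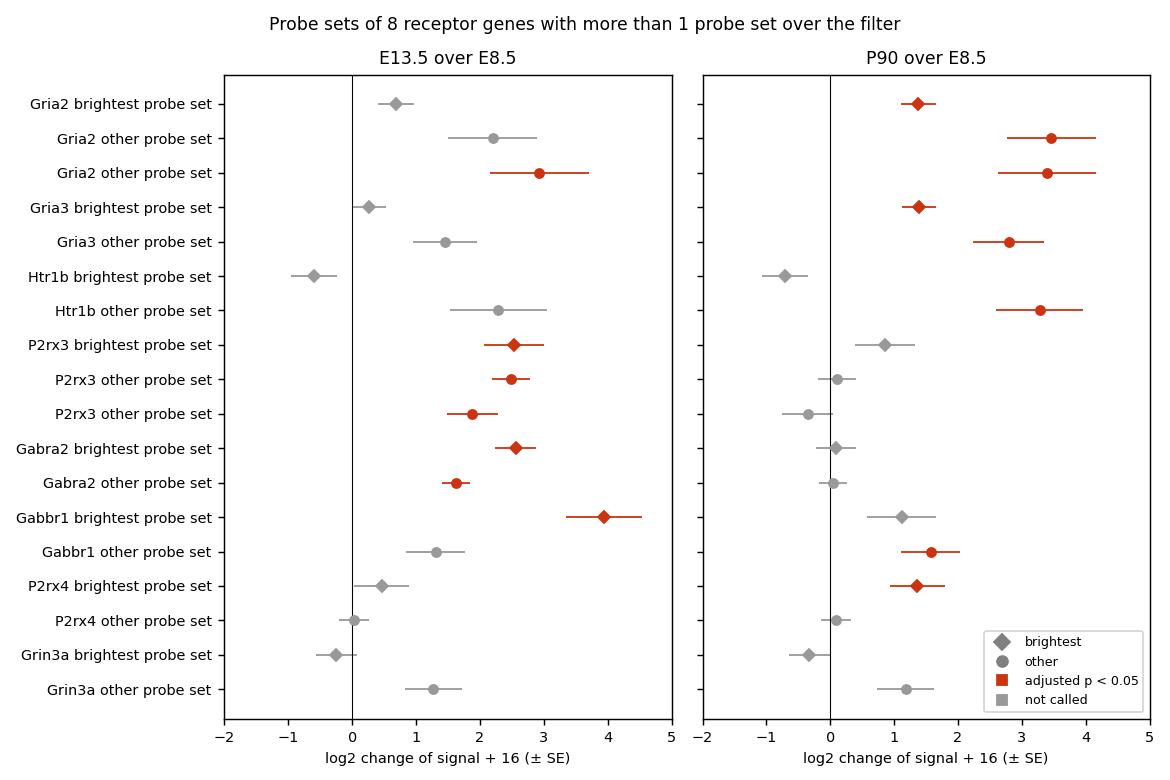
Log2 change of signal plus 16 (horizontal axis, ± SE) of every probe set that passed the signal filter for 8 receptor genes, at E13.5 over E8.5 and at P90 over E8.5, with diamonds for the brightest probe set, circles for the others and red for an adjusted p under 0.05 over all probe sets. Probe sets of P2rx3 rose together at E13.5, those of Gria2 and Gria3 rose by different amounts at P90, and the Htr1b probe sets lie on opposite sides of 0.

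Serotonin receptors were the second largest group, with 13 genes and 8 tested, and gave 1 call. Htr7, coupled to the stimulatory G protein, had 58.3, 60.05 and 64.1 at E8.5, 167, 106 and 161 at E13.5 and 112, 91.5 and 67.9 at P90. E8.5 arrays were the lowest, and E13.5 and P90 overlapped. Htr7 rose at E13.5 (log2 1.04 ± 0.28, adjusted p = 0.0268), and the call ended on removing E13.5 replicate 1, E13.5 replicate 3 or any of the E8.5 arrays (adjusted p between 0.068 and 0.0979). Htr3a and Htr3b, the channel-forming pair, are neighbours in the genome with 0 protein-coding genes between. Htr3a had 262, 198 and 222 at E8.5, 848, 220.2 and 541 at E13.5 and 271, 212 and 166 at P90, with E13.5 replicate 2 among the values of the other stages. It was not called at E13.5 against E8.5 (adjusted p = 0.177), and was without E13.5 replicate 2 (log2 1.52, adjusted p = 0.0156). Htr3b had 118, 80.5 and 102 at E8.5, 89.5, 113 and 133 at E13.5 and 115, 128 and 130.2 at P90, all overlapping, and was not called (log2 0.14 ± 0.28 at E13.5 against E8.5, adjusted p = 0.807).

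Htr1b, which inhibits transmitter release through Gi proteins, differed by probe set. Its brightest read 275, 262 and 272 at E8.5, 112, 182 and 251 at E13.5 and 165, 208 and 116 at P90, and was not called at P90 against E8.5 (log2 -0.71 ± 0.36, adjusted p = 0.183), although all 3 P90 arrays lay below E8.5. The other read 15.6, 18.0 and 11.5 at E8.5, 81.9 and 217 at E13.5 with replicate 1 empty, and 72.6, 748 and 384 at P90. That probe set rose at P90 against E8.5 (log2 3.28 ± 0.68, adjusted p = 0.00714 over all probe sets, without the empty array), so no direction is given for the gene. Htr1a had 35.2, 37.7 and 27.2 at E8.5, 16.9, 17.5 and 19.4 at E13.5 and 31.4, 28.8 and 22.3 at P90, with E13.5 below both other stages, and was not called at E13.5 (log2 -0.54 ± 0.20, adjusted p = 0.0968). Htr4, Htr5b and Htr6 stayed between -0.19 and 0.35 in log2 change.

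Catecholamine receptors gave 0 calls in limma, and none of their tested genes reached an unadjusted p under 0.05. Adra2c, which restrains catecholamine release from chromaffin cells in mice, had 60.2, 42.6 and 35.2 at E8.5, 67.2, 41.0 and 55.2 at E13.5 and 35.6, 60.02 and 49.7 at P90. All stages overlapped (log2 0.06 ± 0.27 at P90 against E8.5, adjusted p = 0.908). Drd2, the inhibitory dopamine receptor, had 26.4, 18.3 and 80.7 at E8.5, 26.0, 23.7 and 64.9 at E13.5 and 62.4, 113 and 24.5 at P90, likewise overlapping (log2 0.51 ± 0.48 at P90 against E8.5, adjusted p = 0.488). Adra1b, Drd1, Drd3 and Drd4 did not pass the filter.

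P90 replicate 1 read below 0.5 times both other P90 arrays in 6 of the 44 members with no empty P90 value, against 7.65% of all tested genes. These were Chrna3, Chrnb2, Gabrb1, Gria4, Grik2 and Grik3, at a share of 13.6%. Dbh and Pnmt, enzymes of noradrenaline and adrenaline synthesis, were lowest on that array too, at 305 against 2172 and 2072 for Dbh and 632 against 3749 and 3289 for Pnmt. Without that array, 7 members rose and 1 fell at P90 against E8.5, where 11.8% of all genes rose and 14.5% fell in the same fit. Chrnb2 (log2 1.87 ± 0.51, adjusted p = 0.018), Gabrb1 (log2 1.49 ± 0.31, adjusted p = 0.00457), Gria4 (log2 2.08 ± 0.31, adjusted p = 0.000595) and Grik2 (log2 1.88 ± 0.30, adjusted p = 0.000959) joined the calls, and P2rx4 left them (adjusted p = 0.0881). With all arrays, second probe sets of Chrnb2 (log2 0.10 ± 0.32, adjusted p = 0.859), Gabrb1 (log2 0.28 ± 0.26, adjusted p = 0.487) and Gria4 (log2 0.28 ± 0.25, adjusted p = 0.461) were not called at P90 against E8.5. At E13.5 against E8.5 the fit without that array called 12 members, all higher, with Chrnb2, Gria4 and Grik2 added, where 11.8% of all genes rose and 8.79% fell. With all arrays, the second probe sets of Chrnb2 (log2 -0.15 ± 0.32, adjusted p = 0.818) and Gria4 (log2 0.33 ± 0.25, adjusted p = 0.453) were not called there. At P90 against E13.5 the fit without P90 replicate 1 called 2 higher and 6 lower, where 4.12% of all genes rose and 6.19% fell. The part of chromaffin or endothelial cell content in the values of that array was not tested.

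**Figure D4:**
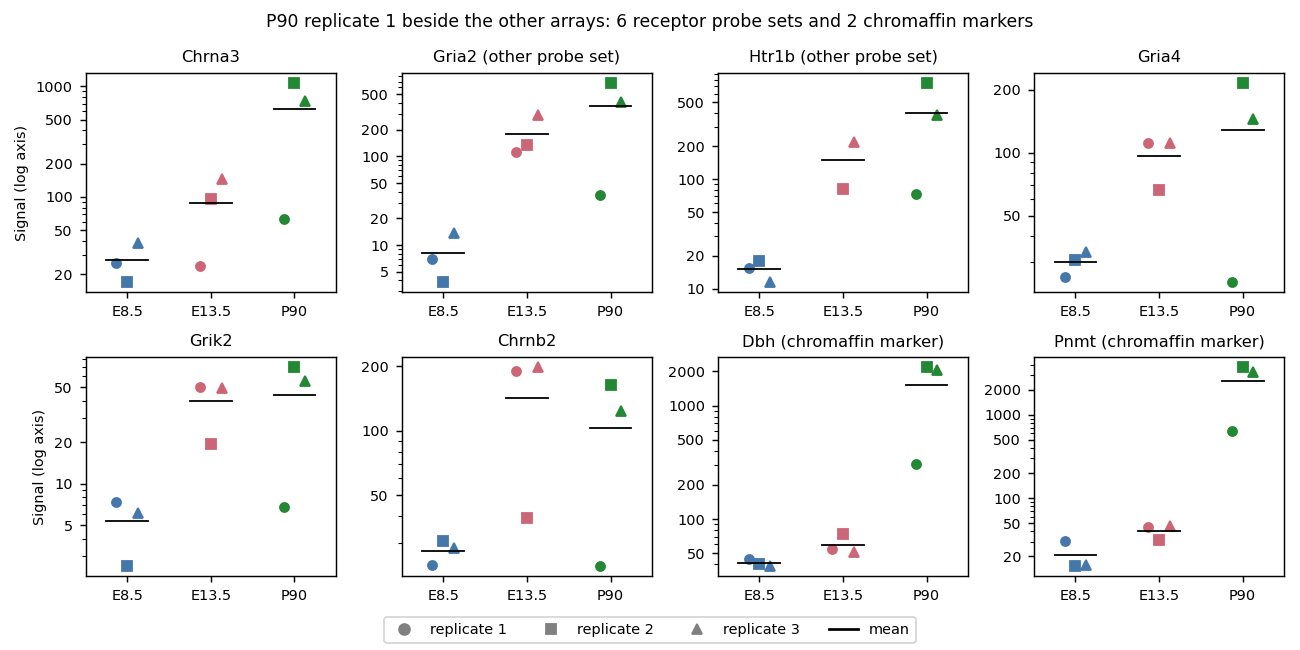
Signal (log axis) on each array of 6 receptor probe sets and of the chromaffin markers Dbh and Pnmt, with E8.5, E13.5 and P90 from left to right, a symbol per replicate and a line at the mean. The circle of P90 replicate 1 lies below both other P90 arrays in all 8 panels, at 305 against 2172 and 2072 for Dbh. The panels were picked to show that array, so their agreement is no test. The brightest probe sets of Gria2 and Htr1b, not shown, were not lowest on it. They read 186 against 185 and 223 for Gria2, and 165 against 208 and 116 for Htr1b.

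Genes that work with the receptors were read from lists of their partners. Their counts stand beside shares over all genes of 9.27% higher and 7.22% lower at E13.5 against E8.5, 3.54% and 5.94% at P90 against E13.5, and 10.9% and 12.5% at P90 against E8.5, and nothing particular to a list is read from them. Of 7 other inhibitory subunits, 2 were tested. Glrb, the beta subunit that anchors glycine receptors, rose at E13.5 (log2 1.85 ± 0.57, adjusted p = 0.0481) and at P90 (log2 2.49 ± 0.57, adjusted p = 0.00887) against E8.5. Of 11 tested glutamate receptor auxiliary and orphan subunits, 4 rose and 0 fell at E13.5 against E8.5, 0 rose and 3 fell at P90 against E13.5, and 1 rose and 2 fell at P90 against E8.5. Gsg1l, an auxiliary AMPA subunit, had 5.16, 8.75 and 4.30 at E8.5, 425, 104 and 225 at E13.5 and 2159, 503 and 429 at P90, and rose at both later stages against E8.5, with no overlap (log2 5.18 ± 0.60 at P90 against E8.5, adjusted p = 0.000112). Neto2, an auxiliary kainate subunit, rose at E13.5 (log2 1.54 ± 0.44, adjusted p = 0.0318) and fell at P90 against E13.5 (log2 -2.95 ± 0.44, adjusted p = 0.00145). Cacng4, an AMPA receptor subunit of the stargazin family, fell at P90 against E13.5 (log2 -2.27 ± 0.35, adjusted p = 0.00192).

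Among 28 tested chaperones and scaffolds, 2 rose and 2 fell at E13.5 against E8.5, 1 rose and 3 fell at P90 against E13.5, and 3 rose and 3 fell at P90 against E8.5. Dlg2, a postsynaptic scaffold, read 23.6, 18.9 and 14.9 at E8.5, 44.5, 47.1 and 38.7 at E13.5 and 354, 481 and 298 at P90, and rose at P90 against E13.5 (log2 2.70 ± 0.27, adjusted p = 0.000124). Nlgn3, a synaptic adhesion protein with E13.5 replicate 2 empty and left out, rose at E13.5 (log2 2.87 ± 0.57, adjusted p = 0.00652) and fell at P90 against E13.5 (log2 -3.65 ± 0.57, adjusted p = 0.00272). Homer2, a scaffold of metabotropic glutamate receptors, fell at P90 against E13.5 (log2 -3.22 ± 0.61, adjusted p = 0.00622). Of 15 coupling and desensitisation genes, 2 rose at E13.5, both G protein alpha subunits, and both fell after it. Gnao1 read 12.4, 25.3 and 32.7 at E8.5, 1334, 323 and 1145 at E13.5 and 33.7, 209 and 253 at P90, with no overlap between stages (E13.5 against E8.5 log2 4.40 ± 0.66, adjusted p = 0.00101). Gnal changed by 3.42 ± 0.39 (adjusted p = 0.000213) at E13.5 against E8.5.

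Enzymes and transporters of the transmitters themselves numbered 19 tested of 29. At E13.5 against E8.5, 2 rose and 1 fell. Ache, which breaks down acetylcholine, read 6.70, 9.41 and 6.35 at E8.5, 349.7, 121 and 82.4 at E13.5 and 17.9, 189 and 124 at P90, and rose (log2 2.86 ± 0.61, adjusted p = 0.00795). At P90 against E13.5, 4 rose and 1 fell, the rises being the catecholamine genes Th, Ddc and Dbh and the oxidase Maob, and the fall the glutamate transporter Slc1a3 (log2 -2.18 ± 0.33, adjusted p = 0.00165). At P90 against E8.5, 5 rose and 1 fell. Of 5 other tested metabotropic receptors for purines, adenosine and histamine, P2ry14, a receptor for UDP sugars, rose in all 3 comparisons, with 5.56, 5.19 and 9.68 at E8.5, 71.2, 54.1 and 23.5 at E13.5 and 357, 568 and 243 at P90 (P90 against E8.5 log2 4.08 ± 0.36, adjusted p = 1.67e-05). No other member of that list was called.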

How the data were processed

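Expression was measured in 9 samples on Affymetrix mouse arrays of 45101 probe sets, 1 array per sample. PicoPure extracts gave 400 ng of total RNA for each labelling, per the labels' protocols. Values in the deposited table are intensity on a linear scale. The submitters' processing notes name MAS5, GCOS, RMA and GCRMA with no role, and which of them scaled the values is not given in the sources used here, nor why 8048 values were empty. Gene symbols came from the platform annotation: 34945 probe sets had 1 symbol, 932 had several and 9160 had none. Values were used as log2(signal + 16). A probe set was kept above the 40th percentile on at least 3 of 9 arrays with at least 2 values per stage, and the brightest per gene was tested. All 9 arrays went into 1 limma fit (version 3.58.1, R 4.3.3, eBayes with a variance trend, two-sided, 6 residual degrees of freedom), with Benjamini-Hochberg adjustment over all 13748 genes, and an empty value was dropped from its fit. The fit was tested on simulated data. The alternatives tried were a test against a 2-fold change, each array left out in turn, other filters, probe set choices and variance models, pseudocounts of 1 and 64, quantile normalization, only the arrays compared, a replicate block, and the Actb difference as a covariate. Leaving out P90 replicate 1 and E13.5 replicate 2 together was added after seeing the data. Called members, check genes given by family, and the most changed called genes of each list are named. The membership rule reads symbols alone, but the receptor set, the lists and the tests were chosen with earlier results of these data known. Few arrays per stage limit precision.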

Additional observations from a re-analysis of the deposited data

How the results depend on the processing

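Of 75 values for 25 named genes, 0 changed sign with a call in either fit under 1692 alternative values. A call was lost in 60, of which 19 were under the test of a change of at least 2-fold, and gained in 38. Changes called in neither fit were not counted as reversed, and some changed sign. Chrnb2 at P90 against E13.5 went from log2 -0.43 to 0.24 without P90 replicate 1. The 9 members called at E13.5 against E8.5 became 14 with no filter on signal, 5 with the filter at the 60th percentile and 2 when a change of at least 2-fold was required. The 8 called at P90 against E13.5 became 5 with the stricter filter and 1 under the 2-fold test, and the 5 called at P90 against E8.5 became 0 under it. Fewer genes are tested under the stricter filter and more without one; for the other shifts the cause was not tested. Leaving out each array gave 6 to 12, 3 to 9 and 3 to 8 members in the 3 comparisons, and 6 of 9, 3 of 8 and 3 of 5 calls held in every such fit. These fits kept the genes that had passed the filter on all 9 arrays. They therefore do not test the calls of Gabra2, Gabra3, Glra2 and Gria1 apart from the filter. P90 replicate 1 and E13.5 replicate 2 left out together, chosen after seeing the data, gave 15, 12 and 9. Deviations from the stage means correlated at r from -0.367 to 0.385 over 9 pairs of samples with the same number. Samples with different numbers gave r from -0.378 to 0.433, so this check cannot tell whether the numbers pair the samples. With the replicate block, 9, 8 and 5 members were called, P2rx4 being lost at P90 against E8.5 (adjusted p = 0.0558) and P2rx6 gained. Dim signals or empty values kept 34 members out of the tests.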
